A study of Neurospora crassa with 6 samples.

Results

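Heterotrimeric G proteins and the cyclic AMP pathway were followed in the filamentous fungus Neurospora crassa through 10 genes, chosen by locus tag for their place in the pathway, with earlier results of these data known, out of 9730 genes in the expression table. They are the G alpha genes gna-1 (NCU06493), gna-2 (NCU06729) and gna-3 (NCU05206), the G beta gene gnb-1 (NCU00440), the G gamma gene gng-1 (NCU00041), the receptor gene gpr-4 (NCU06312), the adenylate cyclase gene cr-1 (NCU08377), the protein kinase A catalytic subunit genes pkac-1 (NCU06240) and pkac-2 (NCU00682), and the protein kinase A regulatory subunit gene mcb (NCU01166). All 10 were measured in every culture, and all 10 reached the minimum mean of 1 FPKM (fragments per kilobase of transcript length, also divided by the size of the library) needed for testing. RNA came from 6 shaken liquid cultures, 3 from the control strain 328-4 and 3 from strain 1810, a mutant in which the gene period-2 (prd-2) is interrupted by the barR marker, the design being meant to show what prd-2 does in the circadian clock. Both strains carry the bd allele of ras-1 and are of mating type A, and every culture was harvested after 48 h at 25 °C under constant light in Bird medium with 1.8% glucose. Each genotype is represented by a single strain, so a further difference between the strains cannot be told apart from the mutation, and errors and p-values describe the spread between cultures of a strain.

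In this pathway a receptor in the plasma membrane, on sensing a nutrient or a pheromone, makes a G alpha protein exchange GDP for GTP and part from its G beta-gamma partner. In Neurospora, G alpha proteins act on adenylate cyclase, which makes cyclic AMP. Cyclic AMP binds the regulatory subunit of protein kinase A and frees the catalytic subunits. The pathway is known in this fungus for its part in hyphal extension, the repression of asexual sporulation in submerged culture and carbon sensing, and protein kinase A is known to act on the clock proteins FRQ and White Collar.

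Summed FPKM over all genes lay between 657467 and 672543 in control cultures and between 664476 and 688885 in mutant cultures. The mutated gene prd-2 (NCU01019) had a mean of 26.2 FPKM in control cultures and 6.78 FPKM in mutant cultures, and the casein kinase I gene ck-1a (NCU00685) a mean of 337.7 and 208.5 FPKM. The span of prd-2 overlaps that of NCU01021, which averaged 134.6 FPKM over the 6 cultures, so the level of prd-2 is uncertain. Of 5 genes taken here as markers of conidia, the asexual spores that a mycelial culture could also hold, 3 passed the test described below. This is 60%, beside 47.8% of all tested genes. The transcript of con-6 was higher (log2 fold change 2.51), those of con-8 and con-10 were lower (-0.92 and -0.53), and fl and eas did not pass. None of the 5 markers was near 0 in any culture, the lowest value being 15.1 FPKM for fl. These transcript levels alone do not show whether conidia were present. The summed level of the 5 markers ran from 1814 to 1992 FPKM in control cultures and from 1356 to 3192 FPKM in mutant cultures, where eas alone held 2382 FPKM in replicate 1. Without eas, the other 4 markers summed to 1150.4 to 1302 FPKM in control cultures and 722 to 810 FPKM in mutant cultures. These ranges did not overlap, and the mutant mean was 62.6% of that of the controls, beside 103.9% for the sum with eas. Most of this sum was con-8, with means of 1120.8 FPKM in control and 589.8 FPKM in mutant cultures. In the opposite direction, con-6 rose from a mean of 19.5 to 117.2 FPKM, and its span overlaps that of NCU08768. The part of sporulation in the results that follow was not tested.

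The G alpha transcripts gna-1 and gna-2 were lower in the mutant, and the catalytic subunit transcripts pkac-1 and pkac-2 were higher. These 4 of the 10 genes passed the test, limma on log2(FPKM + 1) with a Benjamini-Hochberg adjusted p under 0.05 over all tested genes, and the other 6 did not. Among all 7797 tested genes 47.8% passed it, 24% as higher and 23.8% as lower, beside 40% of the 10 genes. The median change of the 10 genes was 0.04 log2 units, against 0.01 over all tested genes, and their median size of change was 0.16 against 0.21. The 4 called genes changed by 0.19 to 0.40 log2 units, each less than 0.43, the median size among all called genes. The strains were fully separated for 5 of the 10 genes, with the mutant higher for 2 (30.5% of all tested genes) and lower for 3 (29.3% of all tested genes). In bulk RNA a smaller number of cells expressing a gene and less of its RNA per cell cannot be told apart.

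**Figure D1:**
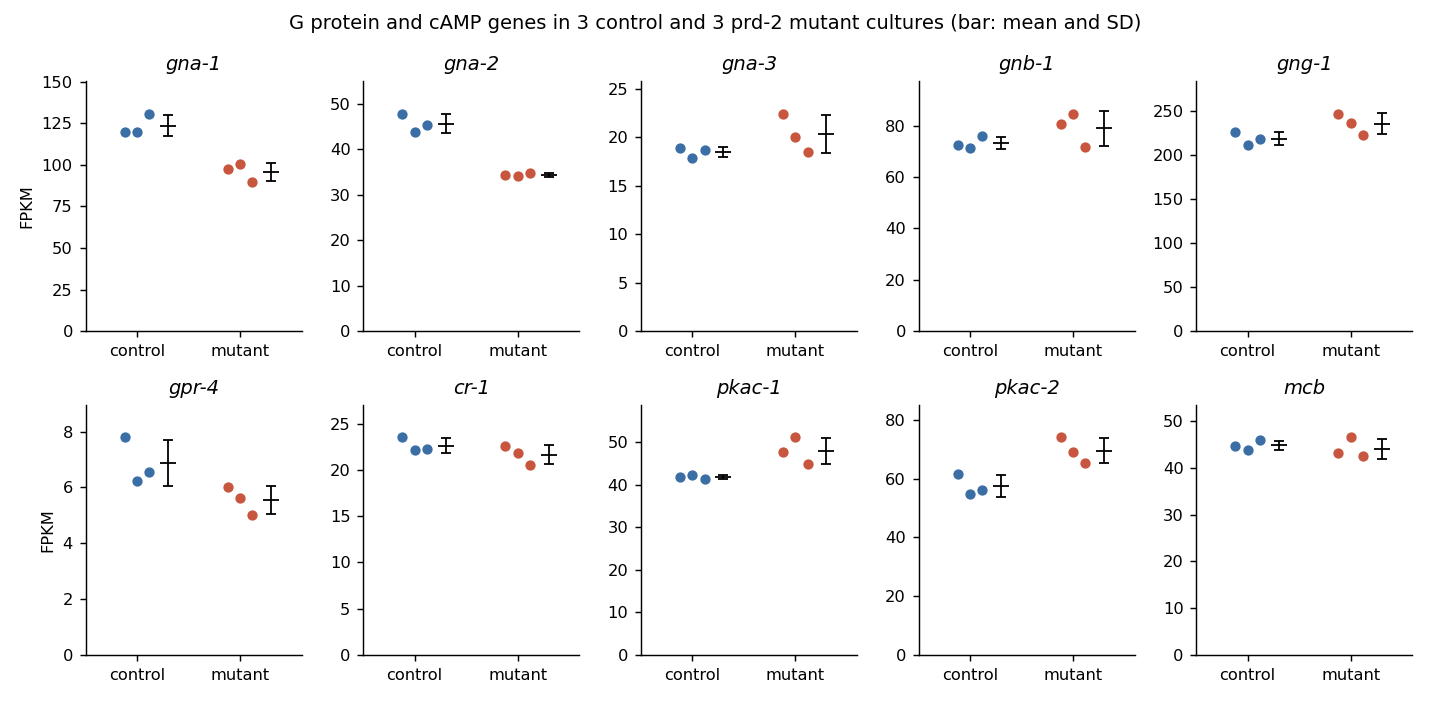
FPKM (vertical axes, each starting at 0) of the 10 genes in the 3 control (blue) and 3 prd-2 mutant (red) cultures, with replicates 1 to 3 from left to right and the mean and SD as a bar beside them. The strains are fully separated for gna-1, gna-2, gpr-4, pkac-1 and pkac-2 and overlap for the other 5 genes.

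Of the G alpha genes, gna-1, which encodes the inhibitory-type alpha subunit needed for normal hyphal growth and female fertility, was the most abundant. It measured 119.7, 119.8 and 130.7 FPKM in control cultures and 97.3, 100.3 and 89.7 FPKM in mutant cultures. The highest mutant value lay below the lowest control value. The mutant cultures averaged 77.6% of the control level, a change of -0.36 log2 units (SE 0.064, limma adjusted p = 0.00326).

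The transcript of gna-2, an alpha subunit whose loss has mild effects alone and stronger ones in combination with loss of the others, measured 47.8, 43.8 and 45.3 FPKM in control cultures. In the mutants it measured 34.3, 34.1 and 34.9 FPKM. The 3 mutant cultures lay within 1 FPKM of each other and apart from all controls. Its change of -0.40 log2 units (SE 0.052, limma adjusted p = 0.000839) was the largest of the 10 genes and ranked 2154 by size among the 7797 tested genes.

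The third alpha subunit gene, gna-3, is known for sustaining adenylate cyclase and cyclic AMP levels. It measured 18.9, 17.9 and 18.7 FPKM in control cultures and 22.5, 20.1 and 18.5 FPKM in mutant cultures. Mutant replicates 1 and 2 lay above all controls and replicate 3 among them. The change of 0.13 log2 units (95% interval -0.05 to 0.30, limma adjusted p = 0.203) did not pass.

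Summed over the 3 alpha genes, which FPKM allows because it is a level per length, the controls held 181.5 to 194.8 FPKM and the mutants 143.1 to 154.5 FPKM. The sum did not overlap between strains, with the mutant mean at 80.3% of the control mean. This restates gna-1 and gna-2, which make up most of the sum and were each separated in this direction. The share of gna-1 in the sum was 65.8% ± 1.46 in control cultures and 63.6% ± 1.18 in mutant cultures (SD, n = 3 each). That of gna-3 was 9.86% ± 0.251 and 13.5% ± 0.93 (SD, n = 3 each), without overlap. The mutant mean differed from the control mean by -27.6 FPKM for gna-1, -11.2 FPKM for gna-2 and 1.85 FPKM for gna-3. The share of gna-3 thus moved mainly through the lower levels of the other alpha genes. These sums and shares were not tested, and taken singly 59.8% of all tested genes did not overlap between strains.

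The partners of the alpha subunits did not pass the test. The G beta gene gnb-1, whose product is needed to keep normal alpha subunit protein levels, measured 72.7, 71.1 and 75.8 FPKM in control cultures and 80.6, 84.6 and 71.5 FPKM in mutant cultures. Again mutant replicates 1 and 2 lay above the controls and replicate 3 among them. Its log2 fold change was 0.10 (95% interval -0.06 to 0.27, limma adjusted p = 0.27).

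The G gamma gene gng-1, whose product forms a stable dimer with GNB-1, had the highest level of the 10 genes. It measured 226.1, 211.5 and 218.8 FPKM in control cultures and 247.5, 236.4 and 223.5 FPKM in mutant cultures. Only mutant replicate 3 fell within the control range. The log2 fold change was 0.11 (95% interval -0.03 to 0.24, limma adjusted p = 0.173).

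The receptor gene gpr-4, whose product is known to interact with GNA-1 in the response to carbon sources, was the least abundant of the 10. It measured 7.79, 6.23 and 6.56 FPKM in control cultures and 6.02, 5.62 and 4.997 FPKM in mutant cultures. All mutant values lay below all control values, the closest pair being 6.02 and 6.23 FPKM. The change of -0.26 log2 units (95% interval -0.50 to -0.03, limma adjusted p = 0.0656) did not pass the threshold. It passed in 1 of 14 alternative settings, with every culture rescaled to the same total (adjusted p = 0.0493), and was -0.09 with quantile normalization. The annotated span of gpr-4 overlaps that of NCU06311, a far more abundant transcript at 186.3 ± 16.6 FPKM in control cultures and 246.5 ± 13.9 FPKM in mutant cultures (SD, n = 3 each). No source says to which locus shared fragments were counted, so the value of gpr-4 is uncertain.

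Adenylate cyclase mRNA (cr-1) was close in both strains. It measured 23.5, 22.1 and 22.2 FPKM in control cultures and 22.6, 21.8 and 20.6 FPKM in mutant cultures, with overlapping ranges. The log2 fold change was -0.06 (95% interval -0.20 to 0.07, limma adjusted p = 0.405).

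For protein kinase A, the catalytic subunit gene pkac-1, which encodes the main catalytic subunit in Neurospora, measured 41.9, 42.3 and 41.3 FPKM in control cultures. The mutants measured 47.8, 51.2 and 45.0 FPKM, all above the controls. The mutant cultures averaged 115% of the control level, a change of 0.19 log2 units (SE 0.059, limma adjusted p = 0.0319). This call was lost in 7 of 14 alternatives: with each culture rescaled to the same total (adjusted p = 0.0682), with quantile normalization (0.0865), and on leaving out any single culture but mutant replicate 3 (0.0590 to 0.0932).

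The second catalytic subunit gene, pkac-2, measured 61.7, 54.9 and 56.0 FPKM in control cultures and 74.1, 69.3 and 65.4 FPKM in mutant cultures. The lowest mutant culture lay above the highest control culture. The mutant cultures averaged 121% of the control level, a change of 0.27 log2 units (SE 0.069, limma adjusted p = 0.0157). The call was lost in 4 of 14 alternatives, with quantile normalization (adjusted p = 0.0597) and without control replicate 2 (0.0635), control replicate 3 (0.050003, just above the threshold) or mutant replicate 1 (0.0518).

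The regulatory subunit gene mcb, named for the microcycle blastoconidiation of its mutant, measured 44.7, 43.9 and 45.9 FPKM in control cultures and 43.1, 46.6 and 42.6 FPKM in mutant cultures. The mutant values lay on both sides of the control values. Its log2 fold change was -0.02 (95% interval -0.15 to 0.10, limma adjusted p = 0.737). The span of mcb overlaps that of NCU01167, which did not pass either (limma adjusted p = 0.643), so its value is uncertain in the same way.

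The summed catalytic transcripts measured between 97.1 and 103.6 FPKM in control cultures and between 110.4 and 121.9 FPKM in mutant cultures. Per unit of mcb transcript the sum was 2.22 ± 0.099 in control cultures and 2.67 ± 0.138 in mutant cultures (SD, n = 3 each). Neither quantity overlapped between the strains, and neither was tested. As pkac-1 and pkac-2 were each separated in the same direction, their sum had to be, so it is no further observation. The quantity per unit of mcb uses the same genes, and the level of mcb is uncertain. Taken singly, 59.8% of all tested genes did not overlap.

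**Figure D2:**
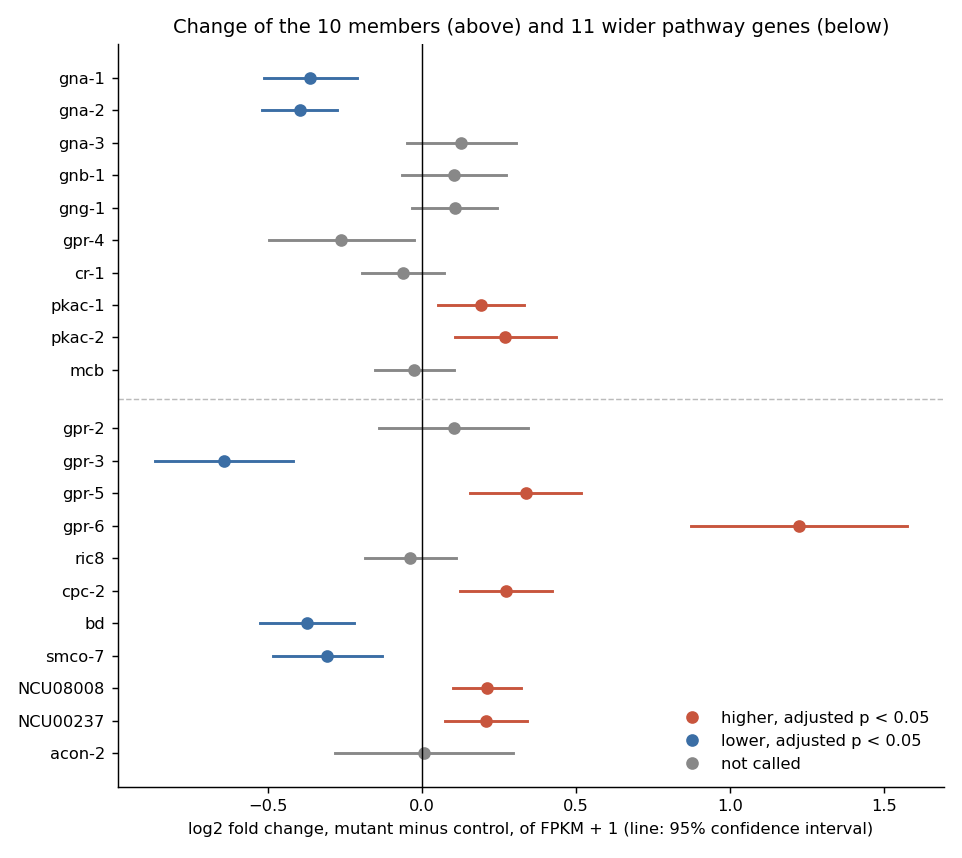
Log2 fold change (horizontal axis, mutant minus control, of FPKM + 1) of the 10 pathway genes above the dashed line and of 11 wider pathway genes below it, with 95% confidence intervals from limma. Red marks genes called higher, blue genes called lower and grey genes not called at an adjusted p under 0.05, and gpr-6 stands farthest from 0 at 1.22.

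Ratios of transcripts within a culture do not depend on how libraries were scaled to each other, and 6 were compared between the strains. With 3 cultures against 3 the smallest two-sided exact permutation p is 0.1, so none could pass a threshold of 0.05. Values did not overlap between strains for 3 of the 6 ratios. Taken singly, 59.8% of all tested genes did not overlap, and no share over other gene pairs was computed. The separated ratios of gna-1 to gnb-1 and of gna-1 to gna-3 share gna-1, so they are not separate observations.

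The ratio of gna-1 to gnb-1 was 1.65, 1.68 and 1.72 in control cultures and 1.21, 1.19 and 1.25 in mutant cultures. It was lower by 0.47 log2 units in mutant cultures, where the SD within a strain was 0.033 (controls) and 0.042 (mutants) (n = 3 each, exact permutation p = 0.1, adjusted 0.2). Within each strain the ratio varied little between cultures. The ratio of gna-1 to gna-3 was 6.34, 6.70 and 6.97 in control cultures and 4.33, 4.9995 and 4.84 in mutant cultures, a difference of -0.50 log2 units (exact permutation p = 0.1, adjusted 0.2).

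The level of mcb is uncertain, as said above, and so are ratios to it. The ratio of pkac-1 to mcb was 0.937, 0.963 and 0.899 in control cultures and 1.11, 1.10 and 1.05 in mutant cultures, a difference of 0.22 log2 units (exact permutation p = 0.1, adjusted 0.2). The paired genes of the beta-gamma dimer had overlapping ratios: gnb-1 to gng-1 was 0.321 to 0.347 in control cultures and 0.320 to 0.358 in mutant cultures (difference -0.002 log2 units, exact permutation p = 1). The ratio of pkac-1 to pkac-2 (difference -0.08, exact permutation p = 0.5) and that of cr-1 to mcb (difference -0.04, exact permutation p = 0.5) overlapped between strains as well.

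**Figure D3:**
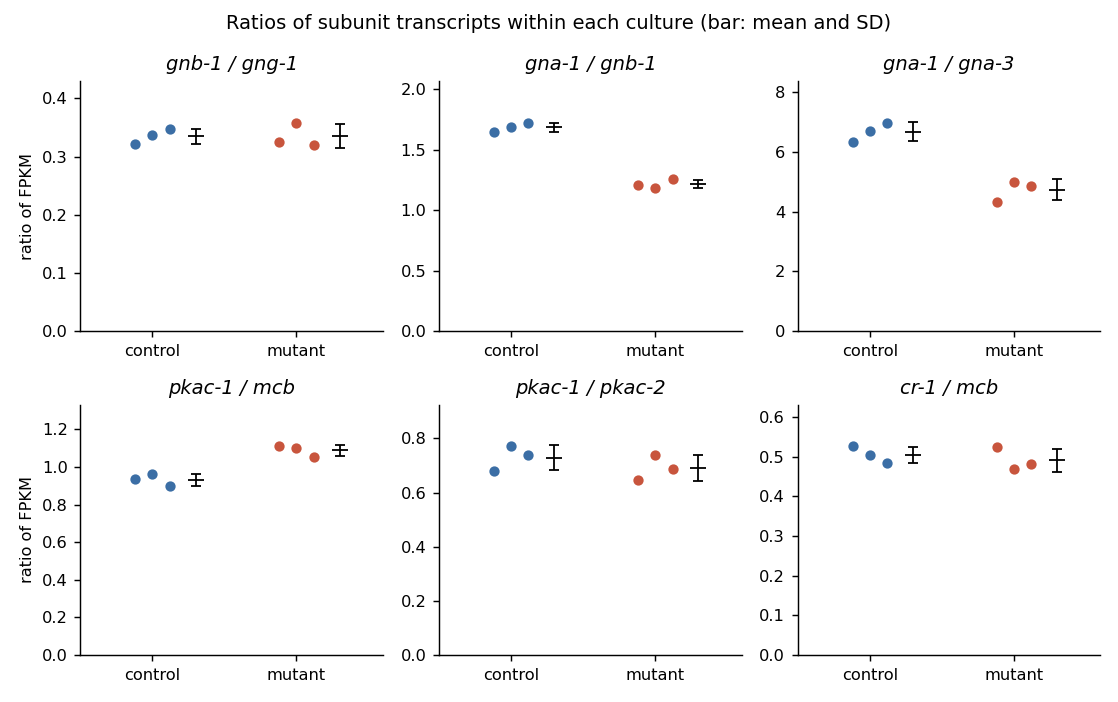
Ratio of the FPKM of 2 genes within each culture (vertical axes, from 0), for 3 control (blue) and 3 mutant (red) cultures, with the mean and SD as a bar. The strains separate for gna-1 / gnb-1, gna-1 / gna-3 and pkac-1 / mcb and overlap for the other 3 ratios.

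By level per length, the 10 genes of the controls ranked gng-1, gna-1, gnb-1, pkac-2, gna-2, mcb, pkac-1, cr-1, gna-3 and gpr-4, from 218.8 down to 6.86 FPKM, a 31.9-fold range. Neighbours in this order were separated in all control cultures except gna-2 and mcb, whose values overlapped. In the mutants gna-2, at 34.4 FPKM, ranked below pkac-1 and mcb, and the neighbours that overlapped were gnb-1 with pkac-2, pkac-1 with mcb, and cr-1 with gna-3. The summed level of all 10 genes was 653.2 ± 17.2 FPKM in control cultures and 654.1 ± 32.6 FPKM in mutant cultures (SD, n = 3 each).

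**Figure D4:**
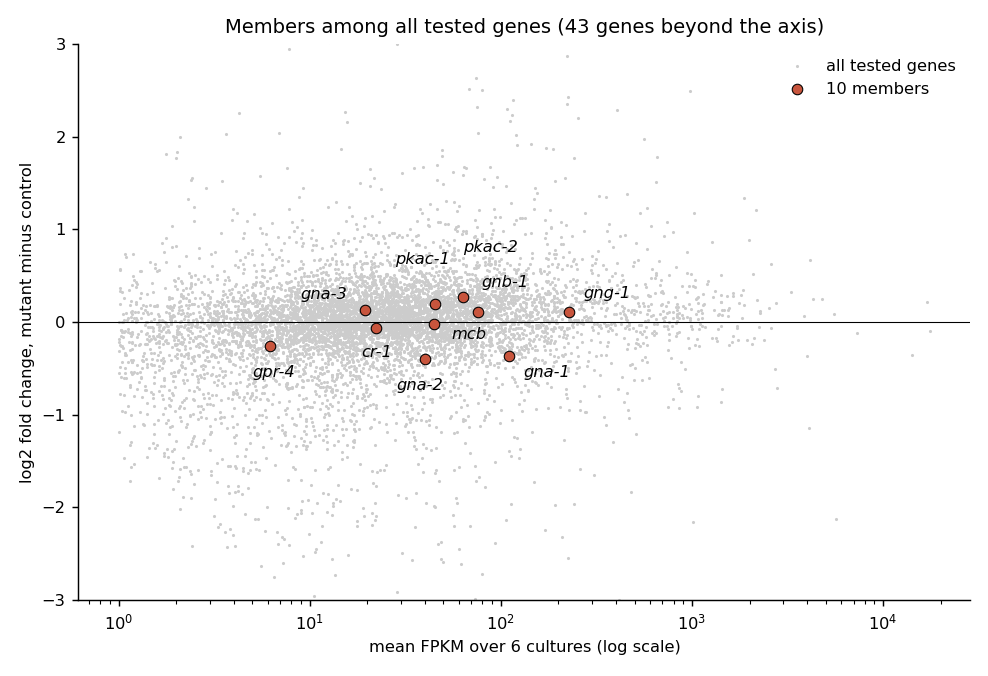
Log2 fold change (vertical axis, mutant minus control) against mean FPKM over the 6 cultures (horizontal axis, log scale) for all 7797 tested genes (grey) and the 10 pathway genes (red). The 10 genes span -0.40 to 0.27 log2 units within a cloud that reaches beyond 3 in both directions, with 43 genes outside the axis.

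Among the mutant cultures, replicate 3 held the lowest value for 9 of the 10 genes, all but gna-2, while it held the lowest value for 29% of all tested genes. Among the controls, replicate 2 held the lowest value for 8 of the 10 genes, against 26.9% of all tested genes. Without mutant replicate 3 the log2 fold changes were 0.19 for gna-3 (limma adjusted p = 0.0739), 0.17 for gnb-1 (0.0610) and 0.14 for gng-1 (0.107), and the 4 called genes were called. Other omissions lowered these values, to 0.06 for gna-3 and 0.07 for gng-1 without mutant replicate 1 and to 0.05 for gnb-1 without mutant replicate 2, and quantile normalization gave 0.01 for gng-1 and 0.04 for gnb-1. The 10 genes were measured in the same libraries, so these counts are a description.

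Further genes of the pathway were taken from a list of 26 names, of which 14 were matched in the table and 12 were not and are not analysed here. The unmatched names were gpr-7 to gpr-10, rgs-1 to rgs-7 (regulators of G protein signalling) and phn-1. They had no matching symbol in the RefSeq annotation and were not looked up by locus tag. Whether these genes were measured was not checked. Only 2 of 10 listed regulators of G proteins, cpc-2 and ric8, were therefore analysed. Of the 14 matched genes, 11 reached the minimum mean for testing. Of these 11, 8 passed the test (72.7%, beside 47.8% of all tested genes), 5 higher and 3 lower, with a median change of 0.10 log2 units beside 0.01 over all tested genes. Strains did not overlap for 8 of the 11, where 59.8% of all tested genes did not.

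Of the 7 receptor genes found, 4 were tested, of which gpr-5 and gpr-6 rose, gpr-3 fell and gpr-2 did not pass. The gene gpr-6, which with gpr-5 resembles a nutrient-sensing receptor of fission yeast, measured 3.63, 4.40 and 4.60 FPKM in control cultures and 9.08, 13.9 and 10.8 FPKM in mutant cultures. The mutants lay far above all controls, at 268% of their mean, a change of 1.22 log2 units (SE 0.149, limma adjusted p = 0.000599). The gene gpr-5 rose less, with a control mean of 10.5 FPKM, a mutant mean of 13.5 FPKM and a change of 0.34 log2 units (SE 0.077, limma adjusted p = 0.00989). Its span overlaps that of NCU00299, which leaves its value uncertain.

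The gene gpr-3, which with gpr-1 and gpr-2 resembles the cyclic AMP receptors of Dictyostelium, fell. It measured 33.2, 30.2 and 27.0 FPKM in control cultures and 17.3, 20.9 and 18.5 FPKM in mutant cultures, without overlap (log2 fold change -0.64, SE 0.095, limma adjusted p = 0.00146). For gpr-2 the test gave no call (log2 fold change 0.10, limma adjusted p = 0.439). The genes gpr-1 and pre-1 stayed below 1.1 FPKM in every culture and were not tested. The pheromone receptor gene pre-2, also below the minimum mean, measured 1.03 to 1.47 FPKM in control cultures and 0.376 to 0.747 FPKM in mutant cultures.

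Among regulators of G proteins, cpc-2, which encodes a G beta-like protein of the RACK1 type also known from cross-pathway control of amino acid synthesis, rose from 447.4 ± 4.41 to 541.1 ± 36.0 FPKM (SD, n = 3 each). The change was 0.27 log2 units (SE 0.064, limma adjusted p = 0.0107). The annotation has NCU05811 overlapping it. The gene ric8, whose product is a guanine nucleotide exchange factor for G alpha proteins, did not pass (log2 fold change -0.04, 95% interval -0.18 to 0.11, limma adjusted p = 0.643).

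Both Ras genes on the list, of the family that feeds adenylate cyclase in budding yeast, were lower. The gene listed as bd (NCU08823), which is ras-1 and carries the bd allele in both strains, had a mean of 225.1 FPKM in control cultures and 173.6 FPKM in mutant cultures (log2 fold change -0.37, SE 0.064, limma adjusted p = 0.00283), with a span overlapping that of NCU08822. The gene smco-7 (NCU03616), which is ras-2, measured 39.9, 36.0 and 43.7 FPKM in control cultures and 32.9, 31.4 and 31.5 FPKM in mutant cultures (log2 fold change -0.31, SE 0.075, limma adjusted p = 0.0127). Control and mutant cultures did not overlap for either gene.

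The phosphodiesterase gene acon-2, whose product breaks down cyclic AMP, was low in both strains, at 1.95 ± 0.251 and 1.97 ± 0.339 FPKM (SD, n = 3 each; log2 fold change 0.01, 95% interval -0.28 to 0.30, limma adjusted p = 0.969). A pair of loci on the list rose, NCU08008 and NCU00237. They were listed as cap-1 and as another phosphodiesterase gene, pde-1, but the annotation gives neither a symbol. NCU08008 rose by 0.21 log2 units (SE 0.047, limma adjusted p = 0.00916). Its span overlaps that of NCU08009, and its call was lost with quantile normalization (adjusted p = 0.0789). NCU00237 had a mean of 8.48 FPKM in control cultures and 9.95 FPKM in mutant cultures, a rise of 0.21 log2 units (SE 0.057, limma adjusted p = 0.0199). Its call was lost without control replicate 2 (0.0622), control replicate 3 (0.0643) or mutant replicate 1 (0.0580).

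For gna-2, the gene of the 10 with the largest change, the profiles most like it over the 6 cultures were sought by Euclidean distance between log2(FPKM + 1) values centred on each gene's mean. They were those of NCU04550 (distance 0.043), NCU08860 (0.050) and NCU05833 (0.055), against a median distance of 0.619 over all tested genes. Their log2 fold changes were -0.39, -0.38 and -0.36. Genes picked as nearest must lie below the median distance and have fold changes like that of gna-2, so these values only describe them. NCU08860 overlaps the span of NCU08859.

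**Figure D5:**
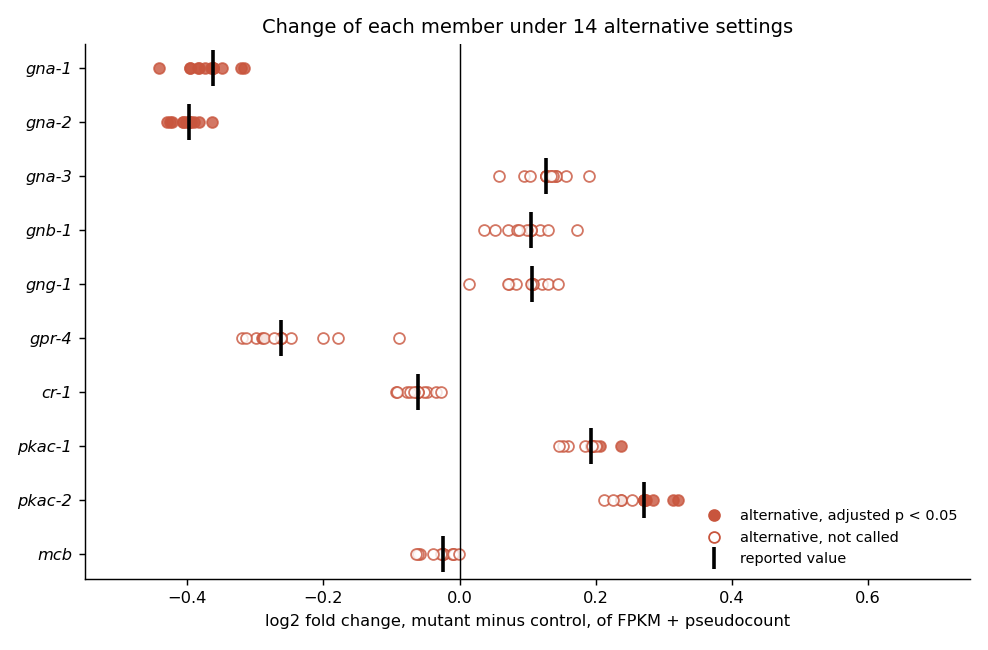
Log2 fold change (horizontal axis, mutant minus control) of the 10 genes under 14 alternative settings, filled where the adjusted p was under 0.05 and open where it was not, with the reported value as a black bar. All points of gna-1 and gna-2 are filled and below 0, while those of pkac-1 and pkac-2 are above 0 and partly open.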

How the data were processed

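FPKM values, 1 per gene and culture, were deposited by the authors. Per the submitters' processing notes they were made with STAR and Cuffnorm. Versions, options, genome build, annotation, use of strand and library scaling are not given in the sources used here. Libraries were poly(A)-selected, directional and read as 150 bp pairs, per the labels' protocols. Each of the 6 columns carries the name of exactly 1 sample. Symbols and overlaps of gene spans came from the RefSeq table of assembly NC12, which holds 9729 of the 9730 locus tags.

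Values were transformed as log2(FPKM + 1), and the 7797 genes with a mean of at least 1 FPKM over the 6 cultures were tested with limma 3.58.1 in R 4.3.3 (eBayes with a mean-variance trend, Benjamini-Hochberg adjustment over all tested genes, threshold 0.05). On this scale the fold of a weakly expressed gene is understated. Intervals are limma's 95% ones. Ratios were compared by exact permutation in Python 3.11.15. The code was tested on simulated data. Absolute depth is unknown, so no counting interval is given. From values under 0.15 FPKM, 1 fragment was estimated to be worth 0.961 to 1.13 times as much FPKM as in control replicate 1. The estimate is rough. It takes these values to stand in ratios of small whole numbers, which held for 67.1% of the genes used in control replicate 3 and 79.7% in mutant replicate 3. Named genes were all 10 members, prd-2, ck-1a, the listed pathway genes that passed, the conidial markers and the 3 nearest profiles to the most changed member. The listed genes that did not pass (gpr-1, gpr-2, pre-1, pre-2, ric8 and acon-2) were named after their values were seen. The members and lists were chosen with earlier results of these data known. Alternatives were a pseudocount of 0.1, no filter, a minimum mean of 5 FPKM, 3 scalings, a constant prior variance, the replicate number as a block, and each culture omitted in turn.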

Additional observations from a re-analysis of the deposited data

How the results depend on the processing

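The 10 genes kept the sign of their change in all 14 alternatives, and the calls of gna-1 (log2 fold change -0.44 to -0.32, adjusted p 0.00155 to 0.0164) and gna-2 (-0.43 to -0.36, adjusted p 0.000555 to 0.00527) were kept in all 14. The number of the 10 genes called, 4 as reported, was 2 with quantile normalization and 2 to 4 on leaving out a culture. The number called higher, 2 as reported, was 1 on the TPM scale (every culture rescaled to the same total), 0 with quantile normalization and 0 to 2 on leaving out a culture. It was 0 without control replicate 2, control replicate 3 or mutant replicate 1. The number called lower was 2 or 3. Fits that leave out a culture have fewer samples, and for the scalings the cause was not tested. The wider pathway genes had 7 to 9 calls, the conidial markers 2 to 3, and all genes 2889 to 3814. Scaling moved the median change of all genes to between -0.02 and 0.05 log2 units. The 6 ratios moved by less than the spread between cultures in their 8 alternatives.

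A fit with a replicate block called 3363 genes, the same 4 of the 10 genes among them. The numbers come from the sample titles. Deviations from the strain's mean were compared across genes between the control and the mutant culture of the same number. Their correlations were -0.10, -0.17 and 0.07 for numbers 1, 2 and 3. With 1 pair per number and means of 3 cultures, these values cannot show whether same-numbered cultures were handled together. The labels do not say so either. Depth is unknown, so precision rests on the spread between cultures, and the lowest level tested among the 10 genes was that of gpr-4.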

Other observations

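The protein kinase A gene pkac-2 lies close to the casein kinase gene ck-1a in the NC12 assembly, with 1 annotated locus, NCU00684, between them. In these cultures pkac-2 was higher in the mutant (log2 fold change 0.27, limma adjusted p = 0.0157) and ck-1a lower (-0.69, limma adjusted p = 5.17e-05). The call of pkac-2 was lost in 4 of 14 alternatives, while that of ck-1a was kept in all 14. Of all tested genes, 24% were called higher and 23.8% lower. NCU00684 measured 4.42 ± 0.358 FPKM in control cultures and 3.69 ± 0.396 FPKM in mutant cultures (SD, n = 3 each), a difference that did not pass the test (log2 fold change -0.21, limma adjusted p = 0.107). This neighbourhood was chosen after its values were seen.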
